A study of Saccharomyces cerevisiae with 21 samples.

Results

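The 25 barcodes described here mark yeast strains whose share of a pool went up under methotrexate (MTX) with some protein pairs and down with others. Each barcode stands for 1 strain of an in-house Saccharomyces cerevisiae library, and each pool is the strain library carrying 1 pair of fused proteins. The members were chosen from 361 barcodes by their MTX effect in medium without drug. That effect is the log2 share of the pool's reads with MTX minus the log2 share without MTX, as the mean of replicates A and B, with 0.5 reads added to each count. Members had 20 or more protein-pair pools averaging 10 or more reads in the 96 h libraries. They also had a median effect from −4 to 1, at least 20% of those pools above 1 and at least 20% below −1. The rule could be applied to the 309 barcodes with enough pools, which leaves 284 as the comparison. The members are 113, 171, 226, 248, 31, 312, 409, 412, 538, 571, 598, 674, 676, 690, 703, 709, 801, 804, 809, 835, 869, 931, 933, 936 and 987.

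The reporter in this assay is dihydrofolate reductase, the enzyme that MTX blocks. A pair of proteins carries complementary fragments of a reductase that tolerates MTX, and the fragments can fold together when the 2 proteins meet. Growth in MTX therefore depends on the protein pair, on the amounts of both fusions in a strain and on how well that strain grows. A share is also relative: a strain whose share goes down may have grown more slowly or may have been overtaken by another strain of its pool.

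All cultures were grown for 96 h in minimal medium with glucose and leucine and were passaged every 24 h. With MTX at 10 µg/mL there were cultures in 0.2 µM 5-FC (flucytosine, an antifungal pyrimidine analog), 100 µM fluconazole (an azole that inhibits ERG11), 50 mM metformin (an antidiabetic) and 17.5 µM trifluoperazine (an antipsychotic) and in medium without drug. The same 5 media without MTX served as their counterparts. Each of the 10 groups had 2 replicates, and 1 further library was taken at time 0. The 20 libraries at 96 h held 5370053 to 10620612 reads over 61 protein-pair pools and 1 reference pool without a pair, and the time 0 library held 2412905. Members held 6.01% to 9.53% of the reads of a library with MTX against 3.43% to 4.84% of a library without it. Nothing in the labels says that A and B came from separate stocks, so p-values measure only the spread between these cultures.

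In fluconazole the replicates were far apart. For a member in a typical pool, the SD between the effects from replicates A and B had a median of 2.40 in fluconazole (log2), against 1.04 to 1.24 in the other media. That is the SD of an effect from 1 replicate. The SD over pools in fluconazole, 2.36, is for the mean of A and B, which varies less, so the 2 values are not directly comparable. Over pools, a member's effects from A and B correlated with a median r of 0.38 in fluconazole, against 0.44 to 0.68 in the other media. The fluconazole counts over raised and lowered features are therefore given a second time from a fit of its 4 libraries alone. Its counts by pool, protein group and reference pool come only from the fit of all 20 libraries.

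A barcode in a pool is called a feature. The members have 1525 features in protein-pair pools, of which 1210 had enough reads to be tested and 315 did not. By the effect without drug, 327 tested features lay above 1 and are called raised, 361 lay below −1 and are called lowered, and 522 lay between. These values chose the members and are descriptions. A member had 23 to 61 tested pools, with a median of 51. Its median effect ran from −1.06 to 0.73, and 17 of the 25 medians were above 0. Both replicates were above 0 in 302 of the raised features and above 1 in 211. Both were below 0 in 326 of the lowered features and below −1 in 211. With replicate A alone 36 barcodes met the rule, 20 of them members, and with replicate B alone 42 did, 22 of them members. Only 18 of the 25 members met it both in A alone and in B alone. Over pools, a member's effects from A and B without drug correlated with r from −0.05 to 0.81. The lowest were −0.05 in strain 31, 0.22 in strain 804, 0.24 in strain 801 and 0.33 in strain 113. Their patterns over pools thus repeated little between replicates. The members closest to the limit were barcode 113, with 20% of its pools below −1, and barcode 226, with 20.4% above 1. Just outside it, barcodes 833, 666, 783 and 791 each had 19.7% on one side.

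The spread of a member over pools was close to that of other barcodes. The SD of the effect over pools without drug had a median of 1.73 in the members and 1.81 in the other 284 barcodes. It was 1.61 and 1.78 in 5-FC, 2.36 and 2.32 in fluconazole, 1.28 and 1.59 with metformin and 1.67 and 1.82 with trifluoperazine. What the rule picked was the middle of that spread: the 1210 member features had a median effect of 0.50 in 5-FC, −0.77 in fluconazole, 0.48 with metformin and −0.13 with trifluoperazine, against −1.43, −1.99, −0.80 and −1.85 over all 15649 tested features of protein-pair pools. Within its pool, a member feature lay above the median of all tested barcodes in 87.9% of cases without drug, 87.9% in 5-FC, 68.7% in fluconazole, 85.7% with metformin and 86.0% with trifluoperazine.

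The rule did not use the cultures with a drug, and the tests were made on these. The labels do not say whether they shared a frozen stock of each pool with the cultures without drug, so they may not be fully independent of the rule. In 5-FC, the raised features as a group kept their direction. Of the 327 raised features, 97 rose with MTX against 1 fell (quasi-likelihood test of edgeR, p under 0.05 after Benjamini-Hochberg adjustment), where 7.51% of all 15974 tested features rose and 42.2% fell. Of the 361 lowered features, 79 fell and 8 rose. The median MTX effect was 1.42 in raised features and −0.61 in lowered ones. The raised features averaged higher than the lowered ones within each of the 25 members, by a difference of medians of 0.96 to 3.20. Both scalings by trimmed means moved the split: of all members' calls in 5-FC, 62.4% were higher in the fit on pool shares, 92.4% with scaling over whole libraries and 93.3% with scaling within pools. The lowered class turned under these scalings: 33 fell and 39 rose over whole libraries, and 30 fell and 51 rose within pools. Its median fitted log2 fold change was 0.49 and 0.53 under these, against −0.60 on pool shares. The count of raised features that rose was 36 to 60 with any 1 of the 4 libraries left out, and that of lowered features that fell was 40 to 53.

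In trifluoperazine, 63 of the raised features rose with MTX against 0 fell, against 6.39% and 45.3% of all tested features. At an unadjusted p under 0.05, 1 raised feature was lower, and DESeq2 called 2 lower. Of the lowered features, 120 fell and 1 rose. The medians were 1.01 in raised and −1.55 in lowered features, and raised features were the higher class in all 25 members, by up to 4.69. Of the members' calls, 34.2% were higher in the fit on pool shares, 88.7% with trimmed-mean scaling over libraries and 89.5% with scaling within pools. Lowered features then fell in 43 and 34 cases and rose in 18 and 25, with median fitted fold changes of −0.13 and 0.12 (log2), against −1.49 on pool shares. Without the MTX replicate A, 63 lowered features fell and without MTX replicate B 73, while the raised count was 25 and 28 without either culture lacking MTX and 38 without MTX replicate B.

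In metformin, effects were smaller. With MTX, 37 raised features rose and 0 fell, where 5.07% of all tested features rose and 30% fell. At an unadjusted p under 0.05, 0 raised features were lower, and DESeq2 called 0 lower. Among the lowered features 30 fell and 11 rose. The medians were 0.87 and −0.05, and raised features were the higher class in 23 of 25 members. The members' calls were 68.7% higher in the fit on pool shares and 91.6% and 90.3% under the trimmed-mean scalings. There the lowered class turned, with 22 and 21 features that fell, 40 and 51 that rose and median fitted fold changes of 0.79 and 0.85 (log2), against 0.03 on pool shares. Leaving out any 1 of the 4 libraries gave 7 to 20 raised features that rose.

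In fluconazole, the raised features split almost evenly on pool shares: 75 rose and 78 fell, where 10.5% of all tested features rose and 46.6% fell. Lowered features fell in 124 cases and rose in 42. The medians were −0.32 in raised and −1.37 in lowered features, and the raised class was higher in 20 of 25 members. The fit of the 4 fluconazole libraries alone gave 34 raised features that rose and 32 that fell, and 55 lowered features that fell and 14 that rose. Of the members' calls, 37.5% were higher in the fit on pool shares and 64.6% and 65.9% under the trimmed-mean scalings. The even split of the raised features did not hold under these: 119 and 120 rose, 40 and 36 fell, and the median fitted fold changes were 1.10 and 1.23 (log2), against −0.24 on pool shares. Lowered features then rose in 88 cases under either and fell in 84 and 71.

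Shares of calls in members were set beside those in other barcodes, with no test of the difference. In 5-FC 29.7% of the members' raised features rose, against 37.2% of the 2092 raised features of other barcodes. In fluconazole these shares were 22.9% in members and 28.4% in the others, in metformin 11.3% and 20.6%, and in trifluoperazine 19.3% and 35.4%. Lowered features fell in 21.9% of cases in members against 70.4% of 9030 in other barcodes in 5-FC, 34.3% against 62.1% in fluconazole, 8.31% against 49.5% in metformin and 33.2% against 74.3% in trifluoperazine. These shares were all lower in members, but raised features that fell in fluconazole were 23.9% in members and 19.1% in the others. Over pools, a member's effects in a drug correlated with its effects without drug with a median Pearson's r of 0.66 in 5-FC, 0.16 in fluconazole, 0.47 with metformin and 0.67 with trifluoperazine. The points are the 23 to 61 pools of 1 strain, which share the libraries and their depth. The corresponding medians in the other barcodes were 0.67, 0.29, 0.48 and 0.68.

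A second test asked in which pools a strain's MTX effect differed from that strain's own mean over pools. In 5-FC 34 of the raised features lay above the strain mean and 0 below, where 5.53% of 15293 features were above and 6.02% below. At an unadjusted p under 0.05 there was 1 raised feature below the mean, and DESeq2 called 1. Of the lowered features, 62 were below the mean and 1 above. In trifluoperazine 51 raised features were above the mean and 57 lowered ones below it, against 5.62% and 5.56% of all features. Metformin had 7 and 24, against 4.34% and 5.05%. Fluconazole had 77 and 81, against 13.1% and 16.7%. It also had 45 raised features below the mean and 40 lowered ones above it, where the other drugs had 0 to 3 such features. In the fit of the 4 fluconazole libraries alone the counts of 77 and 81 became 0, although 3319 of all 15279 features had an unadjusted p under 0.05 there. With any 1 library left out the counts were 4 to 15 and 19 to 33 in 5-FC, 1 to 3 and 9 to 13 in metformin, and 8 to 23 and 16 to 28 in trifluoperazine. In this test the share of raised features called above the mean was 10.4% in members and 8.12% in other barcodes in 5-FC, 23.5% and 17.6% in fluconazole, 2.14% and 2.48% in metformin and 15.6% and 10.5% in trifluoperazine. Lowered features were called below it in 17.2% and 9.15% of cases in 5-FC, 22.4% and 19.9% in fluconazole, 6.65% and 8.12% in metformin and 15.8% and 8.54% in trifluoperazine. These differences were not tested.

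The rule itself, applied to the cultures with a drug, gave lists that held some of the members, who are 25 of the 309 barcodes it could be applied to. It took 25 barcodes in 5-FC, 9 of them members, which is 36% of either list. It took 38 in fluconazole, of which 4 (10.5%) were members, 12 in metformin with 3 (25%) and 26 in trifluoperazine with 14 (53.9%). The share in fluconazole is close to that of members among the 309.

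Strain 931 showed the widest contrast between pools. With the pair of ERV25 (YML012W), a cargo receptor of vesicles between the endoplasmic reticulum and the Golgi, and RBD2 (YPL246C), a rhomboid-family membrane protein, its share was 80.9% and 91.8% of the pool with MTX against 0.525% and 0.317% without MTX, in medium without drug. It was the most abundant strain of that pool. In trifluoperazine it held 86.2% and 79.1% with MTX against 0.135% and 0.198% without MTX, a log2 fold change of 8.96 ± 0.78 (SE, adjusted p = 2.68e-07). In 5-FC it held 59.1% and 54.4% against 0.133% and 0.175% (8.53 ± 0.77, adjusted p = 4.25e-07). Metformin gave 12% and 7.66% against 0.316% and 0.374% (4.83 ± 0.65, adjusted p = 2.52e-05). In fluconazole the strain stayed rare, at 0.00820% and 0.00868% with MTX against 0.0233% and 0.00371% without MTX, and the difference was not called (−0.60 ± 0.62, adjusted p = 0.424). Barcode 540 held 90.1% and 81.7% of that pool with MTX in fluconazole.

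The lowest pool of strain 931 was that of ADE17 (YMR120C), which catalyses the last steps of purine synthesis, and GIS2 (YNL255C), an RNA-binding protein of translation. Without drug it had 0.0103% and 0.00953% with MTX against 0.548% and 0.470% without MTX. The strain fell there in each drug. The shares with MTX were 0.00677% and 0.0180% in 5-FC, 0.0186% and 0.0104% in fluconazole, 0.0368% and 0.0359% in metformin and 0.00983% and 0.0102% in trifluoperazine. Without MTX they were 0.869% and 0.994% in 5-FC, 0.496% and 0.731% in fluconazole, 0.609% and 0.947% in metformin and 1.18% and 0.673% in trifluoperazine, so the groups did not overlap in any drug. The log2 fold changes were −6.32, −5.38, −4.42 and −6.51 with adjusted p from 2.7e-06 to 0.000106. The other barcodes of this pool as a whole, without its most abundant strain, changed by −0.31 to −0.96 in the 4 drugs. That is a summed share: the median effect of the 201 tested barcodes of the pool was −3.00 in 5-FC, −1.67 in fluconazole, −1.10 with metformin and −3.48 with trifluoperazine, and 56.2%, 40.8%, 35.8% and 66.7% of them were called lower.

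Strain 835 was higher with MTX in all 4 drugs in the pool of ADE17 and HYR1 (YIR037W), a glutathione peroxidase. Its shares with MTX were 1.26% and 0.727% in 5-FC, 1.84% and 2.94% in fluconazole, 1.71% and 2.36% in metformin and 0.858% and 4.66% in trifluoperazine. Without MTX they were 0.182% and 0.107%, 0.0266% and 0.0255%, 0.110% and 0.152%, and 0.168% and 0.0594% in the same order of drugs. Every culture with MTX was above both of its counterparts. The log2 fold changes were 2.77 ± 0.76, 6.51 ± 0.91, 3.96 ± 0.80 and 4.57 ± 0.82 (SE, adjusted p = 0.00449, 9.44e-06, 0.000762 and 0.00013). Leaving out replicate B without MTX took the 5-FC call to an adjusted p of 0.0619. With ADE17 and PGM2 (YMR105C), a phosphoglucomutase, the same strain had its lowest effect without drug (−3.55), and there it fell in 5-FC alone (−3.03 ± 1.04, adjusted p = 0.0201). That call was lost under both trimmed-mean scalings and without MTX replicate A, MTX replicate B or no-MTX replicate B.

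Strain 571 went the other way in the ADE17 and HYR1 pool. Its effect without drug was −5.68, with shares of 0.0110% and 0.00689% with MTX against 0.537% and 0.508% without MTX. It fell in 5-FC (−4.38 ± 0.80, adjusted p = 0.000158) and in trifluoperazine (−4.20 ± 0.79, adjusted p = 0.000199), and was not called in fluconazole (−0.15 ± 0.76) or metformin (−1.76 ± 0.72). Thus 1 pool held a member that rose and a member that fell in the same cultures. A further member, 690, was the most abundant strain of that pool with MTX and no drug, at 25.9% and 23.8%.

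Strain 809 had its lowest effects in the pools of RET2 (YFR051C), a subunit of the COPI vesicle coat, and was called lower with MTX in all 3 of them in all 4 drugs. The smallest of these effects was −1.93 in fluconazole with EMP70, which lay 0.63 above the strain's mean over pools. With RET2 and SNA3 (YJL151C), a protein of multivesicular body sorting, it held 0.0424% and 0.0242% with MTX against 2.75% and 2.28% without MTX in medium without drug. In 5-FC it held 0.130% and 0.102% against 2.36% and 3.74%, in metformin 0.156% and 0.149% against 2.95% and 2.86%, and in trifluoperazine 0.0550% and 0.0303% against 1.53% and 0.838%. The log2 fold changes were −4.71, −4.25 and −4.78 with adjusted p from 0.000676 to 0.00255. In fluconazole the fold change was −5.46 (adjusted p = 0.000292), with 0.0128% and 0.0168% against 0.0348% and 1.28%; without the second of the cultures lacking MTX it was no longer called (adjusted p = 0.118). Barcode 756 held 81.2% to 96.2% of this pool in cultures with a drug and MTX and 56.4% to 89.2% in those without MTX. All other barcodes together changed by −1.75, −1.18, −1.96 and −1.57 in 5-FC, fluconazole, metformin and trifluoperazine, and the median over its 130 tested barcodes was 0.37, −1.43, 0.15 and −0.91.

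Strains 171 and 709 had their lowest effects in the ERV25 and RBD2 pool that strain 931 filled. Strain 171 fell in all 4 drugs, with log2 fold changes of −4.28 in 5-FC, −7.42 in fluconazole, −4.31 with metformin and −3.99 with trifluoperazine (adjusted p = 0.000401, 1.16e-05, 0.00102 and 0.00073). In fluconazole it held only 3 and 1 reads with MTX, against 462 and 485 without MTX. The barcodes of this pool other than its most abundant one changed by −1.21, −2.86, −0.18 and −2.56 in the same drugs as a sum, and the median of its 218 tested barcodes by −1.03, −2.29, −0.24 and −1.62. The shares of strain 171 were 0.00643% and 0.0160% with MTX against 0.196% and 0.240% without MTX in 5-FC. Strain 709 held 0.0110% and 0.0336% with MTX against 0.680% and 0.756% without MTX in trifluoperazine and fell there (−5.02 ± 1.01, adjusted p = 0.000354). In metformin it held 1.57% and 3.29% with MTX against 0.479% and 0.551% without MTX, where both cultures with MTX were higher and the difference was not called (2.24 ± 0.88, adjusted p = 0.0532).

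The highest pool of strain 709 was that of ERG11 (YHR007C), the sterol demethylase that fluconazole inhibits, and ORM2 (YLR350W), a regulator of sphingolipid synthesis. There it rose in trifluoperazine, with 1.93% and 1.13% with MTX against 0.0617% and 0.0535% without MTX (4.73 ± 0.93, adjusted p = 0.000273). It also rose in 5-FC (2.95 ± 0.89, adjusted p = 0.00858) and metformin (2.34 ± 0.85, adjusted p = 0.0384). The metformin call was lost with limma at either pseudocount and without either culture lacking MTX or MTX replicate A, and the 5-FC call without MTX replicate A or no-MTX replicate B. In fluconazole the shares were 0.00350% and 0.0103% with MTX against 0.00448% and 0.0303% without MTX and overlapped.

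Strain 409 rose in 5-FC in the pool of PMC1 (YGL006W), a calcium pump of the vacuole, and CTR2 (YHR175W), a copper transporter of the vacuole. It held 3.38% and 2.24% with MTX against 0.0512% and 0.0314% without MTX (6.09 ± 0.78, adjusted p = 5.4e-06). In metformin it held 0.0661% and 0.0526% against 0.0312% and 0.0371%, a difference that was not called (0.80 ± 0.65). With ADE17 and GIS2 it fell in 5-FC (−4.49), metformin (−3.87) and trifluoperazine (−6.20), with adjusted p of 0.000198, 0.00136 and 2.02e-05. In fluconazole it had 0.0887% and 0.0564% with MTX against 0.0512% and 0.0157% without MTX there, and was not called (1.12 ± 0.75).

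Strains 571, 690, 703 and 936 all had their highest effect without drug in the pool of ERV25 and UIP4 (YPL186C), a protein of the nuclear envelope and endoplasmic reticulum. It was the highest pool of 6 of the 25 members. In the drugs it gave few calls for these strains. Strain 936 rose in 5-FC (2.89 ± 1.07, adjusted p = 0.0298), a call lost with limma and without MTX replicate A or either culture lacking MTX. Strain 703 rose in metformin (3.07 ± 1.01, adjusted p = 0.0232), a call lost with limma at the smaller pseudocount and without MTX replicate B or either culture lacking MTX. In fluconazole strain 571 fell, with 0.00248% and 0.00456% with MTX against 1.13% and 0.336% without MTX (−7.75 ± 1.18, adjusted p = 2.37e-05). Its cultures with MTX in fluconazole held only 4 and 3 reads. Strain 690 rose there (5.62 ± 1.26, adjusted p = 0.000855), but its cultures with MTX held 0.0354% and 1.27%, and the call was lost without replicate B (adjusted p = 0.214). Strain 703 fell there (−3.62 ± 1.03, adjusted p = 0.00543), with 0.109% and 0.00152% against 1.11% and 0.285%, a call lost in the fit of 4 libraries, with trimmed-mean scaling within pools and without no-MTX replicate A.

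Strains 703 and 936 had their lowest effect with ADE17 and ALO1 (YML086C), the last enzyme of erythroascorbic acid synthesis. Strain 936 fell there in 5-FC (−2.75), fluconazole (−5.92) and trifluoperazine (−3.82), with adjusted p of 0.0165, 9.42e-05 and 0.00203. The call in 5-FC was lost under both trimmed-mean scalings and without no-MTX replicate A or MTX replicate B, and that in trifluoperazine under scaling within pools. Strain 703 fell in 5-FC (−5.53), metformin (−3.52) and trifluoperazine (−3.49), with adjusted p of 0.00013, 0.00423 and 0.00138. Its cultures with MTX held only 1 and 3 reads there in 5-FC and 2 and 4 in metformin, so the size of these folds is uncertain. Under scaling within pools the calls in metformin and trifluoperazine were lost, and the one in metformin also without MTX replicate A. In fluconazole strain 703 had 0 reads in both cultures with MTX against 5 and 11 reads in those without MTX, so no fold is given.

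Strains 690, 804 and 933 met in the ADE17 and PGM2 pool. Strain 933 fell in 5-FC (−5.98 ± 1.47, adjusted p = 0.00199), metformin (−4.53 ± 1.36, adjusted p = 0.0133) and trifluoperazine (−5.25 ± 1.41, adjusted p = 0.00392). The metformin call was lost without MTX replicate B. Its cultures with MTX held only 4 and 0 reads there in 5-FC, 5 and 3 in metformin and 3 and 2 in trifluoperazine. In ERV25 and RBD2 strain 933 rose in 5-FC (4.02 ± 0.91, adjusted p = 0.000977) and trifluoperazine (2.53 ± 0.80, adjusted p = 0.0119), at shares of at most 0.0330%. Without MTX it had 2 and 1 reads there in 5-FC and 4 and 6 in trifluoperazine. The trifluoperazine call was lost without MTX replicate A or either culture lacking MTX. Strain 690 had an effect of −5.96 without drug in the ADE17 and PGM2 pool, with 0.0854% and 0.0588% with MTX against 5.30% and 3.75% without it. In metformin it had 14.9% and 28.3% with MTX against 10.3% and 13.6% without MTX there, and no drug gave a call. For strain 804 this pool was the highest without drug on the strength of 1 culture: replicate A gave an effect of −2.30 and replicate B one of 8.76, from 5.94% of the reads. No drug gave a call for it there.

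A few other pools complete the extremes of the named strains. Strain 804 had its lowest effect with PLM2 (YDR501W), a protein with a forkhead-associated domain, and HNM1 (YGL077C), the choline transporter. It fell there in trifluoperazine (−4.82 ± 1.12, adjusted p = 0.00123), in 5-FC (−2.73, adjusted p = 0.0297) and in fluconazole (−2.53, adjusted p = 0.0339). Its cultures with MTX held 0 and 6 reads in trifluoperazine, 7 and 5 in 5-FC and 21 and 1 in fluconazole. The calls in 5-FC and fluconazole were lost under both trimmed-mean scalings, the first also without either MTX culture or no-MTX replicate A and the second in the fit of 4 libraries and without either replicate B. In metformin it had 0.0463% and 0.0883% with MTX against 0.0471% and 0.0496% without MTX. Strain 809 was highest with DHH1 (YDL160C), an RNA helicase of mRNA decay, and LSM3 (YLR438C-A), of the LSm ring, and strain 171 with ERG11 and the polyamine transporter TPO4 (YOR273C). Neither gave a call in a drug. Their fold changes were 0.89 to 1.90 for strain 809 and −0.94 to 1.26 for strain 171.

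Over all 25 members, the pool with the highest effect without drug was called higher in 15 cases in 5-FC, 5 in fluconazole, 10 with metformin and 12 with trifluoperazine. It was called lower in 5 cases in fluconazole. Over all features 7.51%, 10.5%, 5.07% and 6.39% were called higher. The pool with the lowest effect was called lower in 17, 12, 9 and 15 cases of 25 in the same drugs, where 42.2%, 46.6%, 30% and 45.3% of all features were. The counts in fluconazole and metformin are near those shares. ERV25 was in the highest pool of 12 members, and ADE17 was in the lowest pool of 10 and in the highest pool of 4. Among the 13 members not described above, strain 598 had an effect of 6.78 without drug with HUG1, an inhibitor of ribonucleotide reductase, and ADE17. There it rose in 5-FC (6.39), fluconazole (5.11) and trifluoperazine (5.45). Strain 987 was highest in the same pool (4.12) and rose in 5-FC (2.77), metformin (1.96) and trifluoperazine (4.43). Strain 113 had −7.67 with HNM1 and MAM33, a mitochondrial matrix protein, and fell in 5-FC (−3.31), metformin (−6.39) and trifluoperazine (−7.03). There it held only 6 and 5 reads with MTX in metformin and 7 and 2 in trifluoperazine. Strain 226 fell in 5-FC (−3.71), metformin (−3.31) and trifluoperazine (−3.00) with ERV25 and PIS1, the phosphatidylinositol synthase. Its cultures with MTX in these drugs held only 4 to 8 reads there. In fluconazole it was also called lower, on 1 and 0 reads with MTX against 54 and 5 without MTX, so no fold is given. The other 9 had highest effects of 1.88 (strain 674) to 6.32 (strain 412) and lowest effects of −7.09 (strain 248) to −3.05 (strain 31).

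In the second test, some pools departed from a member's mean in the same direction in all 4 drugs. The share of all features that did so was not counted, so these counts do not set members apart from other barcodes. The named strains were chosen by this count. Strain 931 had 2, ERV25 and RBD2 above its mean and ADE17 and GIS2 below. Strain 809 had 2, the pools of RET2 with EMP47 and with SNA3, both below. Strains 171 (ERV25 and RBD2), 571 (ADE17 and PGM2), 690 (SRO9 and SGN1), 804 (ADE17 and HYR1) and 933 (ADE17 and PGM2) had 1 each, all below the mean. Strain 835 had 1, ADE17 and HYR1, above it. The remaining 17 members had 0 such pools. Because the fluconazole values enter, these departures rest in part on the fit that shares its spread over all 20 libraries.

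Pools differed in how many members they raised without drug. These counts come from the values that chose the members and are descriptions. Over all protein-pair pools, other barcodes had 2092 raised and 9030 lowered features. Their shares in each pool were not set beside the members' counts, so the counts do not show a trait of members. DHH1 and LSM3 raised 13 of its 22 tested members and lowered 1, the pool of ERV25 and the sphingolipid regulator ORM2 raised 12 of 24, and that of SSH1, a translocon subunit, and ERG11 raised 12 of 24. Next, with 11 each, came ERV25 with the Golgi lectin EMP47, SNA4 with the GTPase GTR2, ERV25 with UIP4, and ERG11 with ORM2. ERG11 and ACF2, an intracellular glucanase, lowered 16 of 24 and raised 0. ADE17 and GIS2 lowered all 15 tested members. ERG27, a keto reductase of ergosterol synthesis, with ACF2 lowered 13 of 18, HNM1 and MAM33 12 of 22, and ALO1 and ADE17 12 of 19. The number of raised members over the 61 pools correlated with the median effect of all tested barcodes in the pool (r = 0.63, no drug), points that share libraries and strains.

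In the drugs, the members' median effect in the ALO1 and ADE17 pool was −1.95 in 5-FC, −2.60 in fluconazole, −0.73 with metformin and −1.68 with trifluoperazine, with 9, 9, 2 and 7 of 19 members called lower, below the 59.5%, 65.6%, 49.4% and 58.7% of all its tested barcodes. In ADE17 and GIS2 the medians were −1.67, −0.72, −0.42 and −2.17, with 5, 3, 2 and 8 of 15 called lower, also below the shares over all its barcodes given above. ERV25 and ORM2 had medians of 1.13, −1.46, 0.38 and 1.07, with 5, 3, 3 and 6 of 24 members called higher, against 8.97%, 10.3%, 5.98% and 10.6% of all its barcodes. In fluconazole 9 were called lower, against 49.8%. DHH1 and LSM3 had a median of −0.54 in 5-FC, with 4 of 22 members called in each direction (7.90% of all its barcodes higher and 47.1% lower), and 0.69 in trifluoperazine. ERG11 and ACF2 had −2.35 in trifluoperazine but 0.58 in 5-FC. This pool had few reads in replicate A of trifluoperazine without MTX, where strain 674 held 0.147% on 8 reads and strain 987 0.055% on 3. Over the 61 pools, the members' median correlated with the median of all tested barcodes with r = 0.64 in 5-FC, 0.69 in fluconazole, 0.56 with metformin and 0.73 with trifluoperazine. Barcode 838, which is no member, was the most abundant strain with MTX in 49 of the 61 pools without drug, and a member was the most abundant in 3.

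By protein, ADE17 stood lowest. In its 5 pools the members' mean effect relative to each strain's own mean over pools, averaged over the 4 drugs, had a median of −0.96 over 24 members, and 5 of the 24 were above 0. By drug the median was −1.22 in 5-FC, −0.78 in fluconazole, −1 with metformin and −1.20 with trifluoperazine. Of its 84 member features 57.1% were lowered and 16.7% raised without drug. All tested barcodes were low in the same pools, with median effects of −2.59, −2.47, −1.63 and −2.85 in the 4 drugs. ALO1 (−0.40) and FMP45, a protein of plasma membrane eisosomes (−0.39), came next. The highest were the RNA-binding protein SRO9 (0.34), the polyamine transporter TPO2 (0.33) and RET2 (0.29). The value for RET2 is over 12 members and leaves strain 809 at −3.49. Its medians by drug were only 0.05 to 0.25, its median without drug was −0.71, and of its 27 member features 1 was raised and 15 were lowered. Among the 12 named strains, ADE17 was in the 3 lowest proteins of 9 and ALO1 of 7, while HUG1, ORM2, PIS1, SRO9 and TPO2 were each in the 3 highest of 4.

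The ranking varied from strain to strain. The highest proteins were HUG1, TPO1 and HYR1 for 931, TPO2, SRO9 and ORM2 for 809, TPO2, SRO9 and HUG1 for 804, and TPO2, PIS1 and HYR1 for 171. They were ORM2, SSH1 and FMP45 for 690, RET2, PIS1 and HUG1 for 571, TPO2, HYR1 and FMP45 for 835, and HNM1, PIS1 and ERV25 for 933. For 409 they were ALO1, HUG1 and ERV25, for 709 SRO9, ORM2 and TPO1, for 703 SRO9, FMP45 and PIS1, and for 936 SSH1, ORM2 and TPO4. The lowest proteins were ADE17, ALO1 and FMP45 for 931 and for 709, RET2, ADE17 and PIS1 for 809, ADE17, HYR1 and TPO1 for 804, and RET2, TPO4 and ADE17 for 171. They were TPO4, SRO9 and ADE17 for 690, ADE17, HNM1 and ALO1 for 571, SRO9, ALO1 and SSH1 for 835, and ADE17, ALO1 and SRO9 for 933. For 409 they were TPO1, HYR1 and ERG11, for 703 TPO4, ALO1 and MID2, and for 936 ADE17, ALO1 and TPO1. Strain 409, with 1.18 for ALO1, had as its highest protein 1 of the lowest over all members. Strain 933 reached −4.24 for ADE17, over 2 pools, and strain 703 reached −2.47 for TPO4, over 2 pools.

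Of the protein groups, the 3 pools with an EGO complex subunit, which anchors nutrient signalling at the vacuole, had 40.3% of 62 member features raised and 11.3% lowered without drug. In the drugs 10, 17, 3 and 8 of them were called higher in 5-FC, fluconazole, metformin and trifluoperazine, and 10 and 1 were called lower in fluconazole and trifluoperazine. Over all features, in the same order of drugs, 7.51%, 10.5%, 5.07% and 6.39% were called higher and 42.2%, 46.6%, 30% and 45.3% lower. The median effects were 0.86, −0.11, 0.92 and 0.56, against −0.92, −2.44, −0.18 and −1.19 for all barcodes in these pools. The 12 pools with cell wall sensors or plasma membrane domain proteins had 17.8% of 258 features raised and 33.3% lowered, with 22, 44, 12 and 7 called higher and 9, 79, 6 and 29 lower; the lower calls made up smaller shares of the 258 than of all features. The 11 pools with ERG5 or ERG11, enzymes of ergosterol synthesis, had 28.5% of 256 raised and 22.7% lowered. In fluconazole, 55 of these were called higher and 64 lower, with a median of −0.60 against −1.25 for all barcodes. This group left out the pool of ERG27, a further enzyme of that synthesis, with ACF2, which lowered most of its tested members as given above. The 15 pools of choline and polyamine transporters were near even, with 29.2% raised and 30.9% lowered of 291.

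Levels without MTX also differed between the classes. The shares in medium without drug at 96 h defined the classes, so their order with and without MTX follows largely from the rule. The differences in the other cultures were not tested. The median share of raised features was lower than that of lowered features without MTX, at 0.0452% against 0.0957% without drug, 0.0508% against 0.0858% in 5-FC, 0.0406% against 0.0726% in metformin and 0.0576% against 0.0854% in trifluoperazine. At time 0 it was 0.0783% against 0.101%. In fluconazole without MTX it was 0.0290% against 0.0285%. With MTX the raised features had the higher median share in every medium, so the order turned in all but fluconazole. The shares were 0.176% against 0.0201% without drug, 0.156% against 0.0424% in 5-FC, 0.0221% against 0.0125% in fluconazole, 0.0983% against 0.0602% in metformin and 0.125% against 0.0280% in trifluoperazine.

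In the reference pool, which carries no protein pair, all 25 members were tested, and the pool was no part of the rule. Without drug their effects ran from −6.44 (strain 987) to 5.25 (strain 412), with 7 above 1 and 11 below −1. In 5-FC 5 were called higher and 0 lower, while 12.6% of all barcodes of this pool were called higher and 55.1% lower; at an unadjusted p under 0.05, 2 members were lower (edgeR). Metformin had 6 higher and 0 lower, also 0 at an unadjusted p under 0.05, trifluoperazine 5 higher and 2 lower, and fluconazole 3 higher and 12 lower. Over all barcodes of the pool 11.1% were higher and 50.2% lower in metformin, 13.2% and 56.3% in trifluoperazine, and 8.92% and 57.2% in fluconazole, where the members' counts are near these shares. Strain 412 was the highest in 5-FC at 5.71 ± 0.94 (SE, adjusted p = 5.16e-05).

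Members were not alike in their pattern over pools. The correlation of effects over shared pools, averaged over the 4 drugs, had a median of 0.12 over 288 pairs of members and reached 0.48 between strains 571 and 933, over 26 pools. Between a member and another barcode the median was 0.09 over 6710 pairs. Strain 809 was most like barcode 27 (r = 0.56, 29 pools), strain 933 like barcode 94 (0.55, 26 pools), strain 171 like barcode 58 (0.52, 21 pools) and strain 931 like barcode 695 (0.52, 58 pools). The closest barcodes were 715 for strain 709 (0.48, 30 pools), 77 for 804 (0.48, 52 pools), 888 for 936 (0.47, 47 pools), 437 for 409 (0.45, 47 pools), 859 for 703 (0.40, 36 pools), 286 for 690 (0.38, 39 pools) and 653 for 835 (0.37, 50 pools).

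The MTX effect of a named feature was last compared between drugs. Of the 24 highest and lowest features of the 12 named strains, 13 differed between at least 1 of the 6 pairs of drugs. Fluconazole against 5-FC and against trifluoperazine each differed in 8 features and fluconazole against metformin in 7, where 25.6%, 23.6% and 27% of all features did. Metformin differed from trifluoperazine in 3 (background 6.5%) and 5-FC from metformin in 2 (4.83%). Between 5-FC and trifluoperazine 0 of the 24 were called, where 0.0939% of all features were; at an unadjusted p under 0.05 there were 2, and edgeR was the tool run for these differences.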

How the data were processed

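Barcode reads from genomic DNA were deposited by the authors as raw counts per barcode and pool, per the labels' protocols after a 2-step PCR; the program that matched reads to barcodes is not given in the sources used here. No molecular identifiers are named, so counting errors cover sampling only. A pool held 4225 to 850312 reads in a library at 96 h (median 98411). Groups came from the sample titles. Counts were tested with edgeR 4.0.16 (R 4.3.3; quasi-likelihood, 1 coefficient per group over 20 libraries, log pool total as offset, mean of at least 10 reads; 15974 features); the second test added the strain's mean log share to the offset (15293 features). Standard errors are the fold change over the root of the F statistic. P-values were adjusted by Benjamini-Hochberg within each comparison, with 0.05 as the threshold. The tests were tried on counts simulated for trifluoperazine, with changes given only to features averaging 50 or more reads. The first test recovered 158 of 200 features given a log2 change of 4 among 15974 (3 false calls). The second recovered 164 of 200 among 15293 (6 false). Given a change of 2, they recovered 4 and 2 of 200. In the data 1020 features were called higher and 7243 lower in trifluoperazine by the first test. With so few changed features the adjustment was stricter in the simulation, so these recoveries do not measure those in the data. Recovery of changes in features with fewer reads was not simulated. Alternatives were TMM scaling, other filters, DESeq2 1.42.0, limma 3.58.1, other sets of libraries, a strain median and the replicate block.

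The members, lists and rules were chosen with earlier results of these data known. The rule named the 12 members with the most pools departing from the strain mean alike in 4 drugs, each with its highest and lowest pool without drug, the pools raising or lowering most members, and the 3 highest and lowest proteins with at least 3 pools (2 within a strain). Ties between members were settled by pools alike in 3 or more drugs, then by the number of calls against the strain mean. Strains 409, 703, 709 and 936 entered in this way, with 0 pools alike in 4 drugs. Members outside the rule were chosen after their values were seen. The 44 protein names matched a RefSeq gene table (assembly R64), used for names only.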

Additional observations from a re-analysis of the deposited data

Results flagged for a closer look

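The named features below were singled out because their MTX effect differed between 2 drugs in an edgeR test of the difference itself. For each, the called pair of drugs with the largest difference is given, as the first drug minus the second on the log2 scale. That pair was not always the one with the lowest adjusted p. For strain 931 with ERV25 and RBD2 and strain 409 with PMC1 and CTR2, 5-FC minus fluconazole had the lowest, with differences of 9.12 and 5.05. The most extreme was strain 931 with ERV25 and RBD2, at −9.55 for fluconazole minus trifluoperazine (adjusted p = 5.93e-06), which differed in 5 of 6 pairs of drugs. For fluconazole minus trifluoperazine the differences were also 7.32 for strain 409 with ADE17 and GIS2, 5.81 for strain 690 with ERV25 and UIP4, −5.75 for strain 709 with ERG11 and ORM2, and −3.43 for strain 171 with ERV25 and RBD2, whose adjusted p was 0.0492. For 5-FC minus fluconazole they were 9.17 for strain 571 with ERV25 and UIP4, −4.23 for strain 571 with ADE17 and HYR1, and −3.74 for strain 835 with ADE17 and HYR1. For fluconazole minus metformin they were −6.69 for strain 703 with ERV25 and UIP4 and −4.24 for strain 936 with ALO1 and ADE17. The 3 pairs without fluconazole were 5-FC minus metformin for strain 409 with PMC1 and CTR2 (5.30), and metformin minus trifluoperazine for strain 709 with ERV25 and RBD2 (7.26) and strain 804 with PLM2 and HNM1 (5.30). Fluconazole replicates were the furthest apart of all media, and their part in these differences was not tested. The differences for strain 171, strain 804 and strain 571 with ERV25 and UIP4 rest on the few reads with MTX given above.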

How the results depend on the processing

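Counts of called member features moved with scaling, with the libraries in the fit and with each library left out; where no construction shows the cause, the cause was not tested. With TMM over whole libraries and within pools, raised features that rose numbered 218 and 207 in 5-FC (97 on pool shares), 119 and 120 in fluconazole (75), 110 and 78 in metformin (37) and 199 and 178 in trifluoperazine (63). Lowered features that fell numbered 33 and 30 in 5-FC (79), 43 and 34 in trifluoperazine (120) and, within pools, 71 in fluconazole (124). TMM over libraries moved the median of all features to −0.32 in 5-FC, −0.83 in fluconazole, 0.01 with metformin and −0.49 in trifluoperazine, against −1.41, −2.15, −0.77 and −1.83.

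A fit of 16 libraries without fluconazole, chosen after seeing the data, gave 160, 92 and 118 raised features that rose in 5-FC, metformin and trifluoperazine and 49 lowered ones that fell in metformin. Against the strain mean it gave 83, 40 and 106 raised above and 96, 53 and 108 lowered below. Only the 4 libraries compared gave 166, 34, 79 and 111 raised features that rose in 5-FC, fluconazole, metformin and trifluoperazine, 55 lowered ones that fell in fluconazole, 93, 0, 28 and 102 raised above the mean and 94, 0, 44 and 98 lowered below it. DESeq2 gave 64, 22 and 80 raised above the mean in 5-FC, metformin and trifluoperazine and 48 and 91 lowered below it with metformin and trifluoperazine, and limma with 5 reads added gave 12 raised above it in metformin.

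With 1 library left out, raised features that rose were 36 to 60 in 5-FC, 63 to 69 in fluconazole, 7 to 20 with metformin and 25 to 50 in trifluoperazine, and lowered ones that fell 40 to 53, 103 to 129, 20 to 29 and 63 to 81. Above the mean were 4 to 15, 60 to 68, 1 to 3 and 8 to 23 raised, and below it 19 to 33, 64 to 74, 9 to 13 and 16 to 28 lowered. The lone replicate is then assumed to vary like the other groups.

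The labels do not say whether cultures with the same replicate letter shared an inoculum. Over member features, A minus B with MTX and A minus B without MTX correlated with r from −0.07 to 0.08. The counts thus showed no pairing by letter, but they cannot tell how the cultures were started. With a replicate block, 12 of the 24 named features differed between drugs, against 13 without it, and no count above moved by over 1.5 times. Of 50 calls of named features, 32 held in every alternative run. Direction reversed in 2 tests: strain 690 with ADE17 and PGM2 in fluconazole was 4.83 with TMM within pools, and strain 809 with DHH1 and LSM3 in fluconazole was −2.56 without MTX replicate A (−2.56 to 2.59 with 1 library left out). In the simulation, changes of 2 on the log2 scale were mostly not recovered. Far fewer features changed there than were called in the data, so recovery of such changes in the data is not known.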
